A study of Homo sapiens with 2 samples.

Results

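The oncofetal genes described here are GPC3, DLK1, LIN28A, LIN28B, IGF2BP1, IGF2BP2, IGF2BP3, HMGA1, HMGA2 and SALL4, which are genes other than AFP that are active in the fetal liver and found again in hepatocellular carcinoma (HCC). They were chosen by gene symbol, with no use of a measured value in the rule, though earlier results of these data were known. All 10 are among the 58735 listed genes. RNA of PLC8024 cells, a human hepatoma line also called PLC/PRF/5 and labelled as Alexander cells, was sequenced once for MAEL WT and once for MAEL KO, 1 library each. MAEL WT is labelled as wildtype and as non-treated, and the study's text describes the WT cells of another assay as a nontarget control, so whether the sequenced cells had been transfected or cloned is not settled. MAEL KO carries a knockout made with an all-in-one plasmid for Cas9 and a guide RNA against MAEL, a cancer/testis antigen. After sorting on mCherry, single clones were grown, so the MAEL KO library may stand for a single clone, and clone and knockout cannot be told apart. No drug is named in the labels of either library. The comparison asks how the RNA of these cells differs when MAEL is knocked out.

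The oncofetal genes fall into 3 roles. GPC3 and DLK1 are cell surface proteins. GPC3 is a glypican, a heparan sulfate proteoglycan held to the membrane by a lipid anchor and widely used as an HCC marker, and DLK1 is an imprinted relative of the NOTCH ligands that marks fetal hepatoblasts. LIN28A, LIN28B and IGF2BP1 to IGF2BP3 bind RNA. LIN28 proteins hold back the maturation of the let-7 miRNAs, and IGF2BP proteins bind mRNAs and slow their decay. HMGA1, HMGA2 and SALL4 act on chromatin, the HMGA proteins by binding AT-rich DNA and SALL4 as a zinc finger protein that recruits the NuRD deacetylase complex. The let-7 miRNAs are scarce in early development and abundant in adult tissue, and several oncofetal mRNAs are known let-7 targets.

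The sequences that link these genes are the let-7 miRNAs and their matches in the 3′ UTRs. miRNAs themselves were not measured in these libraries. RefSeq (GRCh38.p14) lists 9 mature let-7 and miR-98 species of the 5p arm from 12 loci, and all 9 share the seed, bases 2 to 8, shown in capitals in 3 of them:
hsa-let-7a-5p: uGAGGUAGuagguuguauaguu
hsa-let-7g-5p: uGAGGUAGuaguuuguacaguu
hsa-miR-98-5p: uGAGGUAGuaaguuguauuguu
Of the 2370 mature miRNAs in the RefSeq table, 11 carry this seed.

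LIN28 proteins bind the hairpin from which let-7 is released, and the motif they recognise in or near its loop is GGAG. The letters GGAG lie between the 2 arms, read from the end of the 5p species to the start of the 3p species, in 9 of the 12 hairpins, where let-7f-2, which has no 3p entry, was read to its end. They are not there in MIRLET7A3, MIRLET7B and MIR98. Among the 739 hairpins with both arms in the table, 8.12% hold GGAG between the arms, read on the RNA strand only. One hairpin of each kind is shown, with GGAG in capitals; MIRLET7G lies at chr3:52268278-52268361 on the minus strand and MIRLET7B at chr22:46113686-46113768 on the plus strand of GRCh38.p14:
MIRLET7G: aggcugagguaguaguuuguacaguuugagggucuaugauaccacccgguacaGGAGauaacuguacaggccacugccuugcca
MIRLET7B: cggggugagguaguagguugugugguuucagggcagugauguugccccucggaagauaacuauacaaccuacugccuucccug

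The match to the let-7 seed is the 7 letters CTACCTC, searched on the transcript strand of the 3′ UTR of 1 principal transcript per gene (GENCODE 29, GRCh38). Of the 10 oncofetal genes, 8 hold at least 1 match and 17 matches lie in them in all, whereas 8.59% of 18934 genes with a 3′ UTR hold at least 1. GPC3, whose 3′ UTR has 379 bases, and DLK1, with 3328 bases, hold none. The first match of each gene is shown with the 15 bases before it, and the match is in capitals:
LIN28A: gcacagcctattgaaCTACCTCa
LIN28B: acccggttgcaaagtCTACCTCa
IGF2BP1: tgtgtgcgaagtaaaCTACCTCa
IGF2BP2: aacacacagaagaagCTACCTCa
IGF2BP3: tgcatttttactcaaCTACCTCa
HMGA1: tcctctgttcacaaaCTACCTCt
HMGA2: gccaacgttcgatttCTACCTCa
SALL4: aaagctttaatttatCTACCTCa
Each of these stretches lies within a single exon. Their places on GRCh38 are chr1:26427348-26427370 for LIN28A, chr6:105078812-105078834 for LIN28B, chr17:49051061-49051083 for IGF2BP1, chr6:34245829-34245851 for HMGA1 and chr12:65963298-65963320 for HMGA2, all on the plus strand. On the minus strand they are chr3:185644220-185644242 for IGF2BP2, chr7:23311795-23311817 for IGF2BP3 and chr20:51782923-51782945 for SALL4.

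LIN28B, IGF2BP1 and HMGA2 hold 4 matches each and the other 5 genes hold 1 each. Long 3′ UTRs hold more matches by length alone, so each gene was set beside the genes whose 3′ UTR length is within 20% of its own. Each such set includes the gene itself, so no share can be 0. At least as many matches were held by 0.248% of 1212 genes for LIN28B, 0.595% of 672 for IGF2BP1 and 0.107% of 1871 for HMGA2. For the genes with 1 match the share that holds at least as many was between 8.27% for HMGA1 and 16.2% for LIN28A. A match is a description of the letters and not a measured site of binding.

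The libraries held 19904136 counts (MAEL WT) and 20833332 counts (MAEL KO). Counts were scaled by TMM, and each log2 fold change sets the MAEL KO value over the MAEL WT value after 1 is added to each. A total of 17887 genes reached 10 counts in one library or both and are called tested. No test is possible between single libraries, and no difference below was checked in replicates. Each 95% interval (Clopper-Pearson, exact) treats the counts of a gene in MAEL KO as a share of its counts in both libraries and covers counting error only, and 3 counts were taken as the floor of detection. MAEL itself had 1 count in MAEL WT and 0 in MAEL KO, both under the floor, so its RNA does not check the labels. The labelled liver origin was met in both libraries. Of 15 liver epithelial markers all 15 were measured, and 14 of them were higher in MAEL KO by TMM and 13 by total counts, with summed levels of 17860 and 31520 CPM of the total counts. SERPINA1 went from 78162 to 232891 counts and ALB from 59 to 8550. Of 17 fibroblast, endothelial and leukocyte markers 7 were measured, and the summed levels of the 3 lists lay between 13.46 and 64.56 CPM in MAEL WT and between 8.448 and 35.52 CPM in MAEL KO, with PDGFRA and CD3E at 0 in both. The part of the liver programme in the values below was not tested.

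Of the 10 oncofetal genes, 9 could be compared, and 8 of these 9 were higher in MAEL KO by TMM, with only IGF2BP2 lower. One of the 8 is LIN28A, whose log2 fold change of 0.01 (−0.53 to 0.56) shows no clear direction. Of all tested genes 48.0% were higher. The log2 threshold of 2 is the study's, which also required a low adjusted p-value. That second part was left out here, since single libraries allow no test. GPC3 alone passed the threshold on the higher side, where 2.16% of all tested genes did. No oncofetal gene passed it on the lower side, where 5.64% did. Among all genes with at least 100 counts in a library, these shares were 1.54% and 2.35%. At a log2 threshold of 1, GPC3 and SALL4 passed on the higher side, beside 10.2% of all tested genes, and none passed on the lower side, beside 16.5%. The median log2 fold change of the 9 genes was 0.63, against −0.04 for all tested genes. With at least 100 counts required, it was 0.65 over 8 oncofetal genes, against 0.07 for all genes so filtered. Scaling by total counts in place of TMM shifted the median of all tested genes by −0.27, to −0.31, and that of the oncofetal genes to 0.36. Under it 6 of the 9 genes stayed above 0, beside 6185 of the 17887 tested genes, while HMGA2 and LIN28A changed sign.

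**Figure D1:**
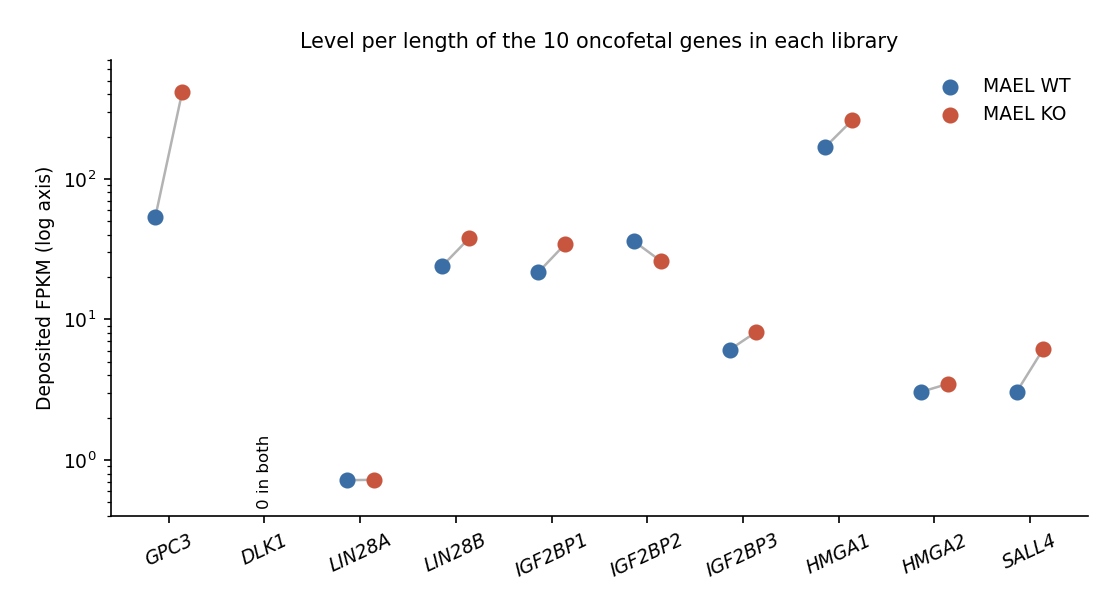
Deposited FPKM (log axis) of the 10 oncofetal genes in the MAEL WT library (blue) and the MAEL KO library (red), 1 library each, with lines joining the values of a gene. GPC3 went from 53.9 to 414.1 FPKM, HMGA1 was high in both, LIN28A stayed near 0.72, and DLK1 was listed at 0 in both.

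Levels between genes can be compared only per length, for which the deposited FPKM values were used. In MAEL WT, HMGA1 was highest at 168.3 FPKM, followed by GPC3 at 53.9, IGF2BP2 at 36.03, LIN28B at 24.08 and IGF2BP1 at 21.6. IGF2BP3 followed at 6.081 FPKM, and HMGA2 at 3.051 and SALL4 at 3.05 were level with each other. LIN28A had 0.7186 FPKM. These levels put HMGA1 at the 99.2nd percentile of the tested genes, GPC3 at the 96.3rd, HMGA2 and SALL4 at the 47.1st and LIN28A at the 21.4th. In MAEL KO the order had changed in 3 places: GPC3 stood above HMGA1, LIN28B and IGF2BP1 stood above IGF2BP2, and SALL4 stood above HMGA2.

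GPC3 differed most of the oncofetal genes. It had 3196 counts in MAEL WT and 21285 in MAEL KO, or 2979 and 22960 after normalization. The MAEL KO library was thus 7.7-fold higher, and this log2 fold change of 2.95 (2.89 to 3) ranked 111th among all tested genes. In FPKM it moved from 53.9 to 414.1, the 99.6th percentile in MAEL KO. The gene lies on the minus strand of the X chromosome at chrX:133535745-133985895 and has 4 annotated transcripts with up to 9 exons. Set against liver genes of the same library, the ratio of GPC3 to ALB differed by −4.44 on the log2 scale (−4.82 to −4.07), that of GPC3 to SERPINA1 by 1.16 (1.11 to 1.22) and that of GPC3 to APOB by 1.97 (1.92 to 2.03).

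**Figure D2:**
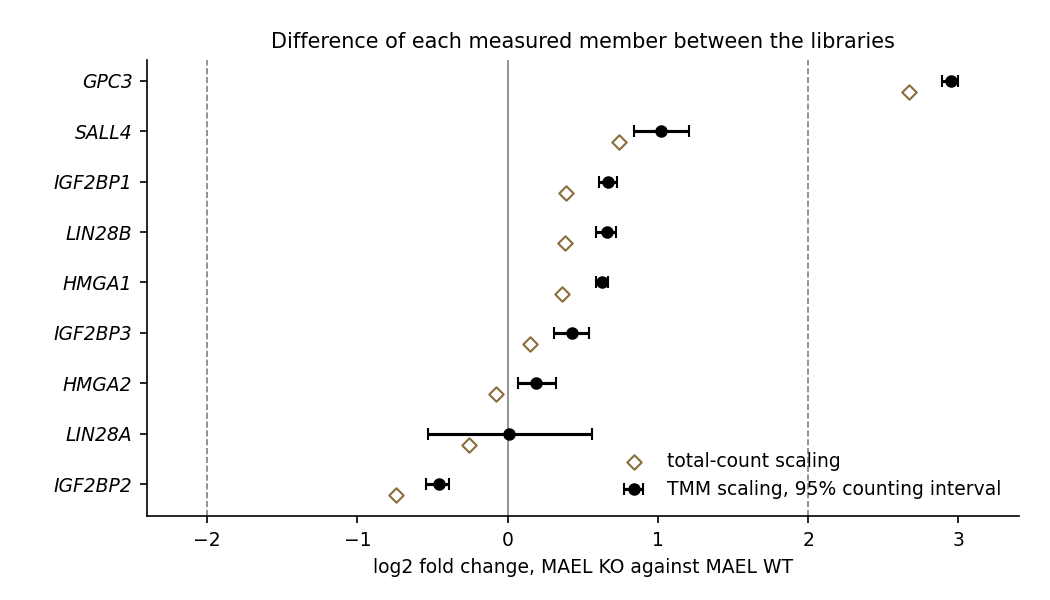
Log2 fold change between the libraries, above 0 where MAEL KO is higher, for the 9 measured oncofetal genes (black points, TMM scaling, with 95% counting intervals) and the same under total-count scaling (open diamonds); dashed lines mark 2 and −2. GPC3 lies past 2 under both scalings, and HMGA2 and LIN28A cross 0 between them.

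DLK1 could not be compared, since it had 0 counts in both libraries. At these depths a count of 0 allows up to 0.1507 CPM in MAEL WT and 0.144 CPM in MAEL KO. It lies at chr14:100725705-100738224 on the plus strand, in an imprinted cluster, and the other genes of that cluster were also near the floor. MEG3, the non-coding RNA of the cluster expressed from the maternal copy, had 5 counts in MAEL WT and 0 in MAEL KO. MEG8, MEG9 and RTL1 had 0 in both, and DIO3 had 0 and 1. DLK2, the relative of DLK1 elsewhere in the genome, was measured, with 264 and 143 counts and a log2 fold change of −0.67 (−0.98 to −0.38).

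LIN28B made up nearly all of the LIN28 RNA. It had 3161 counts in MAEL WT and 4312 in MAEL KO, or 2947 and 4650 after normalization, 1.58-fold higher in MAEL KO. The log2 fold change was 0.66 (0.59 to 0.72), and 0.38 by total counts. LIN28A had 63 and 55 counts, or 58.73 and 59.32 after normalization. Its log2 fold change was 0.01 with an interval from −0.53 to 0.56, so that a difference of either sign up to about that size was not detectable at this depth, and it was −0.26 by total counts. LIN28B supplied 97.1% of the FPKM of the pair in MAEL WT and 98.1% in MAEL KO. The LIN28B gene lies at chr6:104936616-105083332 on the plus strand with up to 6 exons, and LIN28A at chr1:26410778-26429722 on the plus strand with up to 5. LIN28B-AS1, which overlaps LIN28B on the opposite strand and reaches beyond it, had 15 and 36 counts, under 1% of the LIN28B counts.

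The 3 IGF2BP genes did not move together. IGF2BP1 had 4303 counts in MAEL WT and 5911 in MAEL KO, or 4011 and 6375 after normalization. It was 1.59-fold higher in MAEL KO, with a log2 fold change of 0.67 (0.61 to 0.73) and 0.39 by total counts. IGF2BP2, the form that many adult tissues keep, had 3731 and 2340 counts, or 3478 and 2524 after normalization. It was 1.38-fold higher in MAEL WT, a log2 fold change of −0.46 (−0.54 to −0.39), and −0.74 by total counts. It was the only oncofetal gene that was lower in MAEL KO under both scalings with an interval below 0 in the first.

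IGF2BP3 had 1132 and 1316 counts, or 1055 and 1419 after normalization. It was 1.34-fold higher in MAEL KO, a log2 fold change of 0.43 (0.31 to 0.54), which came to 0.15 by total counts. MALSU1, on the opposite strand, overlaps the IGF2BP3 gene and had 735 and 715 counts, 64.9% and 54.3% of the IGF2BP3 counts. The strand setting of the counting is not given in the sources used here, so reads from the shared stretch cannot be told apart. IGF2BP1 lies at chr17:48997412-49055650 on the plus strand with up to 15 exons. IGF2BP2 lies at chr3:185643739-185825056 and IGF2BP3 at chr7:23310209-23470467, both on the minus strand, with up to 16 and 15 exons.

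As a share of the summed IGF2BP FPKM, IGF2BP1 went from 33.9% in MAEL WT to 50% in MAEL KO, IGF2BP2 from 56.6% to 38.1% and IGF2BP3 from 9.55% to 11.9%. The sum itself was 63.7 FPKM in MAEL WT and 68.45 in MAEL KO. The deposited FPKM values carry a scaling between libraries, and the direction of this small difference rests on it. IGF2BP1 stood at 0.6 times IGF2BP2 per length in MAEL WT and at 1.31 times in MAEL KO. This ratio does not depend on the scaling of the libraries, and it differed by 1.13 on the log2 scale (1.04 to 1.22). The ratio of IGF2BP3 to IGF2BP2 differed by 0.89 (0.75 to 1.03) and that of IGF2BP1 to IGF2BP3 by 0.24 (0.11 to 0.37). The increases of LIN28B, IGF2BP1 and HMGA1 were alike in size, as the ratio of LIN28B to IGF2BP1 differed by −0.01 (−0.10 to 0.08) and that of LIN28B to HMGA1 by 0.02 (−0.05 to 0.10).

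HMGA1 was the most abundant oncofetal gene per length in MAEL WT. It had 8565 counts in MAEL WT and 11485 in MAEL KO, or 7984 and 12390 after normalization, 1.55-fold higher in MAEL KO. The log2 fold change was 0.63 (0.59 to 0.67), and 0.36 by total counts. HMGA2, its relative that is mostly embryonic, had 1028 and 1016 counts, or 958.3 and 1096 after normalization. Its log2 fold change was 0.19 (0.07 to 0.32) by TMM and −0.08 by total counts, so its direction rests on the scaling. HMGA1 supplied 98.2% of the FPKM of the pair in MAEL WT and 98.7% in MAEL KO. The ratio of HMGA1 to HMGA2 differed by 0.44 (0.31 to 0.57). HMGA1 lies at chr6:34236873-34246231 and HMGA2 at chr12:65824131-65966295, both on the plus strand. HMGA1 has processed pseudogenes that could take some of its reads, and none of the listed ones had more than 8 counts in a library.

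SALL4 lay at the 47.1st percentile of the tested genes by FPKM in MAEL WT and at the 62nd in MAEL KO. By TMM, SALL4 differed more than the other chromatin and RNA-binding genes of the set. By total counts IGF2BP2 differed as much in the other direction (0.74 for SALL4 and −0.74). It had 385 counts in MAEL WT and 676 in MAEL KO, or 358.9 and 729.1 after normalization. It was 2.03-fold higher in MAEL KO, a log2 fold change of 1.02 (0.84 to 1.21), at the 90.1st percentile of the tested genes, and 0.74 by total counts. The ratio of SALL4 to LIN28B differed by 0.36 (0.17 to 0.56) and that of GPC3 to SALL4 by 1.92 (1.73 to 2.11). SALL4 lies at chr20:51782331-51802520 on the minus strand with up to 4 exons.

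**Figure D3:**
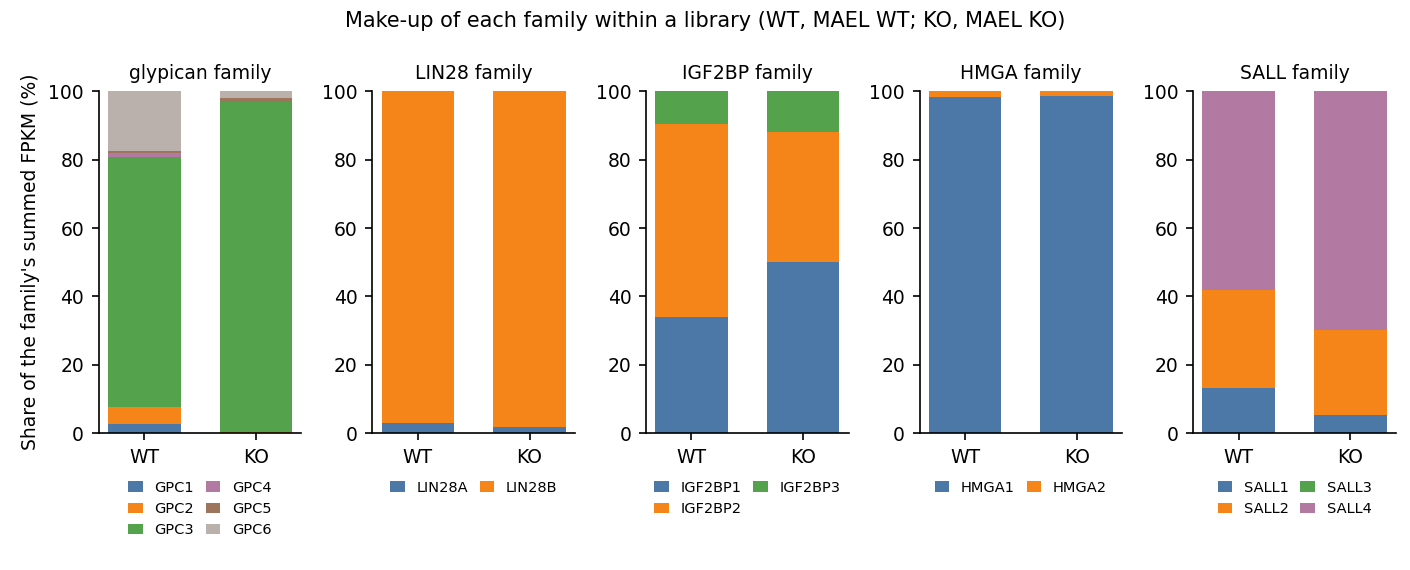
Share of each gene in the summed FPKM of its family (%), in the MAEL WT and MAEL KO libraries, for the glypicans, LIN28, IGF2BP, HMGA and SALL families. GPC3 goes from 73.2% to 96.4% of the glypicans, IGF2BP1 and IGF2BP2 change places, and LIN28B and HMGA1 make up over 97% of their pairs in both.

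Within their families, GPC3 and SALL4 were already the leading genes in MAEL WT and took a larger share in MAEL KO. GPC3 was 73.2% of the glypican FPKM in MAEL WT and 96.4% in MAEL KO. GPC6 fell behind from 17.6% to 2.12%, with 1830 and 1117 counts (log2 fold change −0.50, interval −0.61 to −0.39). GPC1 had 270 and 68 counts (−1.77), GPC2 306 and 104 (−1.34) and GPC4 85 and 27 (−1.41), all lower in MAEL KO. GPC5 was the exception among the paralogs, with 37 and 286 counts and a log2 fold change of 3.12 (2.66 to 3.70), and the ratio of GPC3 to GPC5 differed by −0.21 with an interval from −0.71 to 0.28. Of the glypicans, then, GPC3 and GPC5 were higher in MAEL KO and the other 4 lower, under both scalings. SALL4 was 58.2% of the SALL FPKM in MAEL WT and 69.8% in MAEL KO, while SALL1 had 86 and 51 counts and SALL2 had 176 and 224. SALL3 had 0 in both.

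The other glypicans, the syndecans and the genes that make and trim heparan sulfate, the sugar chain of GPC3, were listed together. Of these 21 genes 20 were measured, 10 on each side of 0 by TMM and 7 above it by total counts, with a median log2 fold change of 0.03 and 2 past the threshold on the higher side and 1 on the lower. NOTUM, the lipase that releases glypicans from the membrane, had 80 counts in MAEL WT and 9 in MAEL KO, a log2 fold change of −2.82 (−4.12 to −1.95). SULF2, a sulfatase that removes sulfate groups from heparan sulfate, had 3 and 47 counts, a log2 fold change of 3.77 (2.54 to 6.51). SDC2, a syndecan, went from 1380 to 3708 counts (1.64).

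Genes of miRNA maturation and let-7 turnover, in which LIN28 acts, centred slightly above 0. All 19 were measured, 15 of them were higher in MAEL KO by TMM and 9 by total counts, and none passed the threshold of 2. Their median was 0.27 by TMM and −0.01 by total counts. HNRNPA1, which binds the let-7 precursor, was highest with 9328 and 28099 counts (1.80), and DGCR8, the partner of DROSHA, followed with 566 and 899 (0.88). The Argonaute genes AGO4, with 882 and 468 counts (−0.70), and AGO3, with 583 and 351 (−0.52), were lowest. TUT4, the enzyme that LIN28A recruits to add uridines to let-7 precursors, had 1666 and 1077 counts (−0.42). The 4 measured host transcripts of let-7 loci lay between −0.12 and 0.34, and MIR100HG and MIRLET7BHG had at most 50 counts.

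Known let-7 targets outside the oncofetal set were spread on both sides of 0. Of 24 listed, 22 were measured, 16 were higher in MAEL KO by TMM and 12 by total counts, and none passed the threshold of 2, with a median of 0.33 by TMM and 0.06 by total counts. CDC25A, a cell cycle phosphatase, had 441 and 1043 counts (1.45) and TGFBR1, a TGF-beta receptor, 722 and 1226 (0.97). IRS2 and IGF1R, both of insulin-like growth factor signalling, were lowest with 2964 and 1672 counts (−0.62) and 1195 and 683 (−0.60). Over all tested genes with a 3′ UTR, the median log2 fold change was 0.02 for 12186 genes with no match to the let-7 seed, −0.01 for 1165 with 1 match, 0.03 for 120 with 2 and 0.15 for 31 with 3 or more. The 3 oncofetal genes with 4 matches stood at 0.66 (LIN28B), 0.67 (IGF2BP1) and 0.19 (HMGA2), and GPC3, with none, at 2.95.

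A list of mRNAs known to be bound by IGF2BP proteins, the machinery of the m6A mark that these proteins read and partner proteins had a median of 0.61. By total counts it was 0.33. Of its measured genes only ACTB, MYC and CD44 were listed as bound mRNAs, so the median is mostly that of the machinery and partners. MYC had 3014 and 3943 counts (0.60) and CD44 28 and 58 (1.23, interval 0.59 to 1.97). Of the 21 listed, 20 were measured, and 17 of them were higher in MAEL KO by TMM and 15 by total counts, none past the threshold of 2. ACTB, a classical IGF2BP1 target, went from 20126 to 48276 counts (1.47) and HNRNPA2B1, a reader of m6A, from 13431 to 29505 (1.35). The m6A demethylases FTO, with 576 and 482 counts (−0.05), and ALKBH5, with 1318 and 1118 (−0.03), were lowest. IGF2, the mRNA that gave the family its name, had 2 and 0 counts, both under the floor.

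Of the other high mobility group genes, 6 had a log2 fold change past 1, which neither HMGA1 nor HMGA2 had. All 12 listed HMG box and HMGN genes were measured, 10 were higher in MAEL KO under both scalings, and the median was 0.94. HMGB2 had 466 and 2081 counts, a log2 fold change of 2.37 (2.22 to 2.52), and HMGN2 had 782 and 3381, a log2 fold change of 2.32 (2.21 to 2.44). Both passed the threshold of 2. TOX4, with 1939 and 1242 counts (−0.43), and HMGN4, with 1960 and 1442 (−0.23), were the only lower ones.

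Among the SALL relatives and the NuRD subunits that SALL4 binds, 20 of 21 were measured, 18 were higher in MAEL KO by TMM and 11 by total counts, with medians of 0.36 and 0.09 and none past the threshold of 2. HDAC1, the deacetylase of NuRD, had 2715 and 5075 counts (1.11) and CHD3, one of its remodelling ATPases, 2629 and 1271 (−0.84). NOTCH receptors, ligands and targets beside DLK1 had a median of −0.17 by TMM and −0.45 by total counts, with 10 of 15 lower by TMM. DLL1 had 14 and 3 counts (−1.73, interval −4.45 to −0.17), HEY1, a NOTCH target, 143 and 44 (−1.47) and the receptor NOTCH3 832 and 263 (−1.45), while NOTCH4 had 18 and 28 counts (0.81, interval −0.06 to 1.79) and HES1 502 and 757 (0.80).

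**Figure D4:**
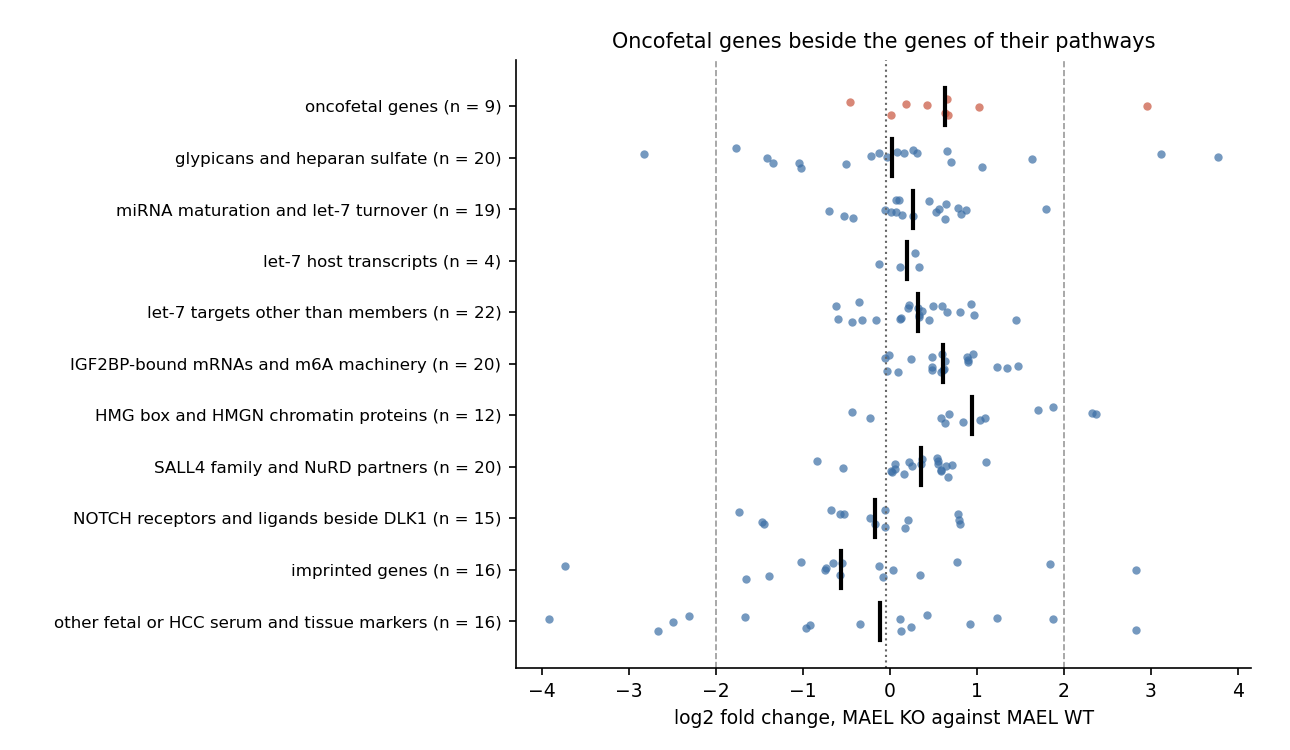
Log2 fold change, above 0 where MAEL KO is higher, for each measured gene of the oncofetal set (red) and of 10 related lists (blue); black bars are medians, the dotted line is the median of all tested genes (−0.04), and dashed lines mark 2 and −2. The oncofetal median of 0.63 lies close to that of the IGF2BP and m6A list (0.61) and below that of the HMG box and HMGN list (0.94).

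No tested gene around GPC3 or SALL4 had a higher log2 fold change than they did. Within 1 Mb of the start of GPC3, the median over 6 other tested genes was −0.55, and it was −0.08 over the 3 of them with at least 100 counts in a library. GPC4, the nearest tested gene on one side, stood at −1.41 and AL009174.1, an antisense transcript inside GPC3 with 13 and 21 counts, at 0.85 (−0.16 to 2.02). Around SALL4, 10 genes had a median of −0.14 and the 7 of them with at least 100 counts one of 0.35, while KCNG1, with 12 and 0 counts, was lower by more than SALL4 was higher. Around the other 7 measured genes the medians ran from −0.11 at IGF2BP1, with 36 genes, to 0.27 at HMGA2, with 8 genes. The 13 tested genes around DLK1 had a median of −0.72, and the 7 with at least 100 counts one of −0.17.

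**Figure D5:**
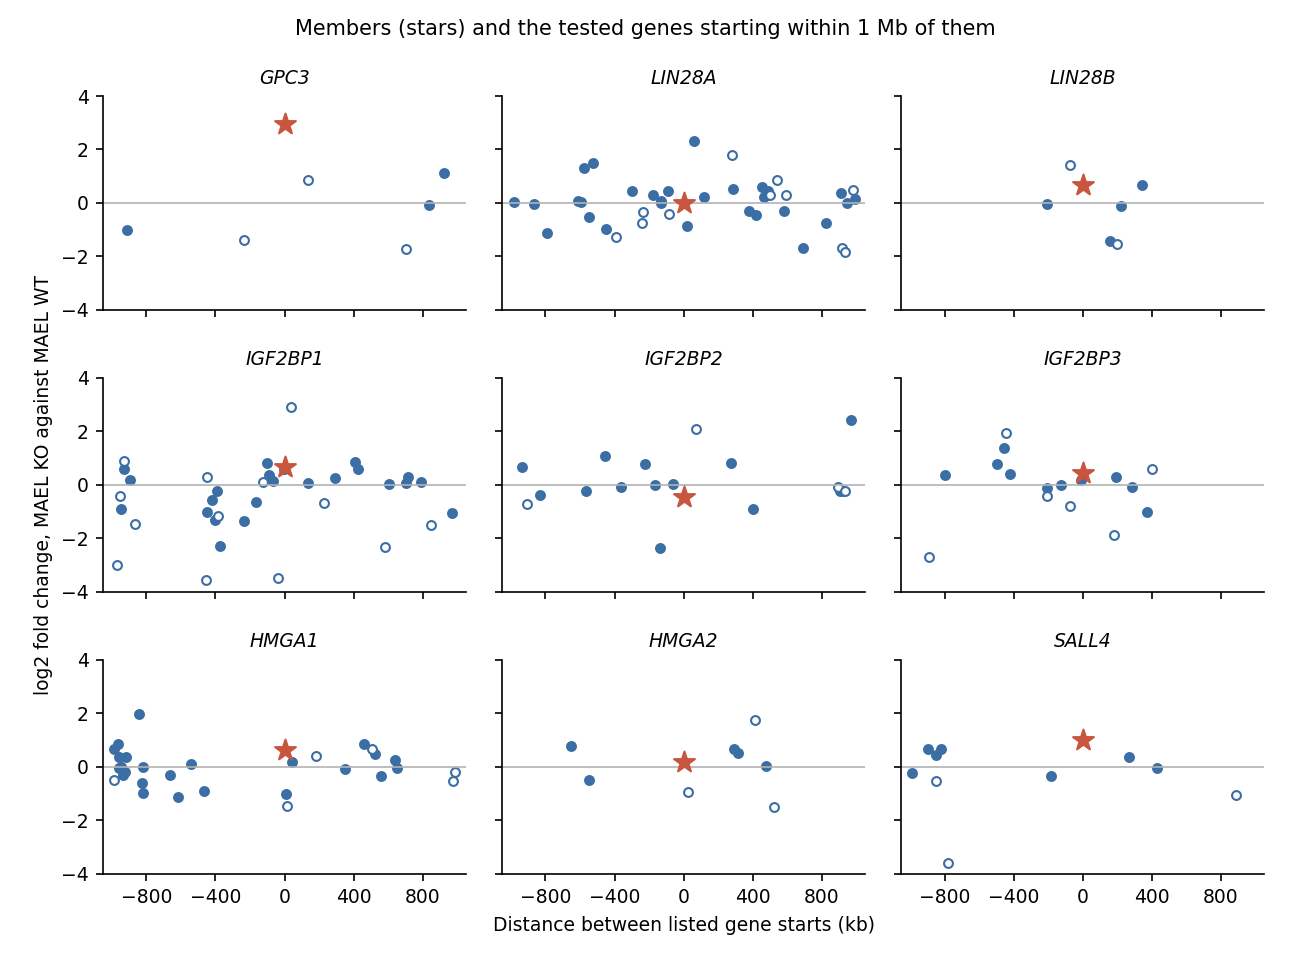
Log2 fold change (vertical axis, above 0 where MAEL KO is higher) of each measured oncofetal gene (star) and of the tested genes that start within 1 Mb of it, by the distance between listed starts in kb; filled points have at least 100 counts in a library. GPC3 and SALL4 stand above all their neighbours, and the other stars lie among theirs.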

How the data were processed

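The data are RNA-seq of PLC8024 cells, 1 library each of MAEL WT and MAEL KO. The authors deposited read counts per gene, whole numbers without normalization, summing to 19904136 and 20833332. The authors also deposited FPKM values, which equal the count divided by gene length and by a library size of 21872531 (MAEL WT) or 18958459 (MAEL KO), so they carry a scaling between libraries. The submitters' processing notes name HISAT2 2.0.5, featureCounts 1.5.0-p3 and hg19, but all 58735 gene starts in the tables match GENCODE 29 on GRCh38, which is the build used here. The strand setting is not given in the sources used here.

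TMM factors (1.10044 and 0.908725) came from edgeR 4.0.16 under R 4.3.3. Since 1 library per group leaves no residual degrees of freedom, the quasi-likelihood test could not be fitted, and log2 fold changes with 1 added and counting intervals were obtained with SciPy 1.17.1, pandas 2.3.3 and NumPy 2.4.6 (Python 3.11.15). The reads carry no molecular identifiers and are not independent molecules, so intervals and floors cover counting error only. A gene with 1 to 3 counts in a library is given with its interval, and one at 0 as a bound against 3 counts. Between 2 genes, the difference of log2 fold changes was taken with an interval from their summed variances on the log scale. Plots were drawn with matplotlib 3.10.9. The steps were tested on simulated data.

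All 10 oncofetal genes are named, with their paralogs, and up to 3 genes past the threshold, otherwise up to 2, at each end of 11 related lists. Outside that rule are TUT4, IGF2, MYC, CD44, MEG3, MEG8, MEG9, RTL1, DIO3, SDC2, NOTCH3, TERT, CBX2, GOLM1, PHLDA2, PEG10 and KCNG1. The cell type markers given by count are outside it too. All of these were chosen after their values were seen. The oncofetal genes and the lists were chosen with earlier results of these data known. Family shares and ratios between genes were chosen after values were seen. Alternatives were DESeq2 1.42.0 size factors, total counts, TMM from filtered genes, FPKM ratios with 0.01 added, added counts of 0.1 and 5, no filter or at least 100 counts, and a log2 threshold of 1. miRNA sequences are from RefSeq.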

Additional observations from a re-analysis of the deposited data

How the results depend on the processing

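No paired analysis was possible because each group holds 1 library, and no library could be left out for the same reason. Of 54 values of the 9 measured oncofetal genes under 6 alternatives, 46 stayed within the counting interval. The other 8 came from total counts, under which the log2 fold change was 2.67 for GPC3, 0.38 for LIN28B, 0.39 for IGF2BP1, −0.74 for IGF2BP2, 0.15 for IGF2BP3, 0.36 for HMGA1, −0.08 for HMGA2 and 0.74 for SALL4. The count of oncofetal genes past the threshold on the higher side was 1 under all alternatives but the log2 threshold of 1, where it was 2, and the count on the lower side was 0 under all of them.

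Over all tested genes 387 were past the threshold on the higher side and 1008 on the lower. These became 250 and 513 with an added count of 5, 1029 and 1773 with no filter, 1827 and 2951 when the log2 threshold was 1, and 185 and 283 once 100 counts were required. The higher side made up 27.7% of the calls, 17.0% by total counts, 36.7% with no filter, 39.5% among genes with at least 100 counts and 38.2% at a log2 threshold of 1. Of 95 list medians under the alternatives, 91 stayed within the interval of the median over the list's genes, which is wide for short lists. By total counts the median was −0.01 for the miRNA maturation list, 0.33 for the IGF2BP and m6A list, 0.06 for the let-7 targets, 0.09 for the SALL4 and NuRD list, and below 0 for the glypican list (−0.25) and the let-7 hosts (−0.06). Among genes with at least 100 counts the median of other fetal and HCC markers was 0.13 in place of −0.11 and that of imprinted genes −0.34 in place of −0.56. The list of antisense partners and pseudogenes, with 2 measured genes and a median of 1.75, had 1.29 with an added count of 5 and 0.30 with no filter, where 8 genes entered. Depth limits LIN28A and DLK1 most, with 63 and 55 counts and 0 in both.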

Other observations

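Other markers of fetal liver or HCC, outside the oncofetal set, were spread widely. Of 22 listed, 16 were measured, 8 on each side of 0 by TMM, with a median log2 fold change of −0.11 (0.13 among those with at least 100 counts), 1 past 2 on the higher side and 4 on the lower. By total counts 5 were above 0 and the median was −0.38. S100P, a calcium-binding protein, had 14792 counts in MAEL WT and 2268 in MAEL KO (−2.49, interval −2.56 to −2.43). EPCAM, an epithelial adhesion protein of hepatic progenitors, had 15 and 0 counts, at least 4.32-fold lower in MAEL KO. KRT19, a keratin of bile duct cells, had 13 and 1 counts (−2.66, interval −8.90 to −0.76). GOLM1, a Golgi protein, had 1144 and 199 counts (−2.31, interval −2.54 to −2.09). On the other side TERT, the telomerase subunit, had 116 and 371 counts (1.88, interval 1.58 to 2.20), CBX2, a Polycomb protein, 588 and 1195 (1.23), and H19, the imprinted fetal RNA, 2 and 18 (2.83, interval 1.32 to 6.53).

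Imprinted genes, the class DLK1 belongs to, had a median of −0.56 (−0.34 among those with at least 100 counts) over the 16 of 26 that were measured, with 11 lower in MAEL KO by TMM. By total counts 4 were above 0 and the median was −0.84. CDKN1C, a growth-restraining cell cycle inhibitor, had 44 and 2 counts (−3.73, interval −7.34 to −2.31) and PHLDA2, a growth-restraining gene of the placenta, 486 and 133 (−1.65). PEG10, a retrotransposon-derived gene that is active in placenta and HCC, went from 3467 to 10697 counts (1.84, interval 1.78 to 1.89).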
